A study of Mus musculus with 2 samples.

Results

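Collagens, laminins and related proteins form the extracellular matrix, the meshwork outside cells that carries the small intestine, and smooth muscle, fibroblasts and blood vessels lie within and beneath it. The 41 genes described here are 24 matrix genes, 3 genes of mesenchymal cells, 10 genes of the contractile apparatus and 4 genes of vascular endothelium, and all probesets named for one of them were taken. They were chosen by name as a reading of non-epithelial tissue, with matrix genes set against contractile and vascular genes. A probeset is the set of short probes by which the array reads a transcript. The table held 79 probesets for 40 of the 41 genes, among 45037 probesets in all, and none for Fbn1.

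The animals were male mice of the inbred strain C57BL/6J, 4 months of age, given a semisynthetic diet with 20% fat by weight over 4 weeks. The control diet had flaxseed oil, rich in the plant n-3 fatty acid ALA, as its lipid. In the EPA&DHA diet, 44% of this lipid was replaced by a concentrate holding 6% EPA and 51% DHA, the long chain n-3 fatty acids of marine origin. Each diet had 12 mice, of which 10 on control and 11 on EPA&DHA gave RNA to the pool of their diet, and 1 Affymetrix mouse array read each pool. The labels describe complete small intestine, whereas in the methods epithelial cells were scraped off the opened gut. With 1 array per diet the spread between mice was not measured, so no standard error or p-value was computed and every value compares these 2 pools. Fewer cells of a type and less RNA per cell cannot be told apart in pooled tissue RNA.

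Fibrillar collagens such as types I, III and V are built by fibroblasts and give tissue its tensile strength, whereas type IV collagen, laminins and nidogen form the thin basement membrane on which epithelium, muscle and endothelium rest. Smooth muscle contracts through smooth muscle actins and myosin, held together by an intermediate filament network of desmin, synemin and vimentin. Serum response factor drives many contractile genes by binding a short element called the CArG box. In the intestine these components lie in the lamina propria around the crypts and villi and in the muscle layers outside the mucosa.

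The 250 bases before the start site of 5 of the genes are shown here from RefSeq (build GRCm38.p6) to show start regions of each kind: Col1a2 and Col3a1 are fibrillar collagens, Des and Synm are filament genes of smooth muscle, and Vim is the filament gene of mesenchymal cells. Of these 5, Synm is among the genes at least 1.5-fold lower on EPA&DHA. Capitals mark a CCAAT box, a TATAAA box, a GGGCGG box and the CArG box with 1 of its inner bases changed to G or C. Each was searched on both strands, and a CCAAT box can lie inside a CArG box.
Col1a2, chr6:4505368-4505617, plus strand: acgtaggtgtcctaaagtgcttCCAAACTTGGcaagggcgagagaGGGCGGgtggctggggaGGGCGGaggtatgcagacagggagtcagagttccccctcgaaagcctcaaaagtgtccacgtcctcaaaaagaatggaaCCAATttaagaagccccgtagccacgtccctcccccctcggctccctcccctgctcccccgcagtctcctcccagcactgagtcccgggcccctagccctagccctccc
Col3a1, chr1:45311288-45311537, plus strand: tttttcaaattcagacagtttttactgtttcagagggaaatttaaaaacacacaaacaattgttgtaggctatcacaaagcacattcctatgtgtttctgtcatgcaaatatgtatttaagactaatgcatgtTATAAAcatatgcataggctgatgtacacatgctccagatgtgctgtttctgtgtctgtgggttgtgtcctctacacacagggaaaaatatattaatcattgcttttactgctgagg
Des, chr1:75360042-75360291, plus strand: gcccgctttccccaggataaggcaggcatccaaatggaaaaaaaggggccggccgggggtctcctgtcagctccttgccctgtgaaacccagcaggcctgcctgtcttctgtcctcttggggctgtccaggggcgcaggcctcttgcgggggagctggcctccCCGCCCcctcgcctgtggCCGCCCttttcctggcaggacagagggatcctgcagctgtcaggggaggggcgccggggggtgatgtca
Synm, chr7:67759743-67759992, minus strand: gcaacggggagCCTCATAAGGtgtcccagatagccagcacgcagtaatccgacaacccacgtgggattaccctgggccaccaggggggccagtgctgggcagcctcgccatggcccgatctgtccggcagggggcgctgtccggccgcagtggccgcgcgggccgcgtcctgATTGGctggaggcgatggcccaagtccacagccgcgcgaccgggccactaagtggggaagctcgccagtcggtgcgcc
Vim, chr2:13574061-13574310, plus strand: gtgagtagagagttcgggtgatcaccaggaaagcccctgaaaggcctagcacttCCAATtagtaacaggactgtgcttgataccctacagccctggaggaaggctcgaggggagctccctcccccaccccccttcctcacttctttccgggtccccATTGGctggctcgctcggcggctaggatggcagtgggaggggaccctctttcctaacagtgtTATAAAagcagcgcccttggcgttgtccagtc
For Acta2, the gene of the actin that defines smooth muscle, the CArG boxes with 1 changed inner base at -84 and -34 from the annotated start are shown with 10 bases on either side, the element in capitals.
Acta2, chr19:34255438-34255467, minus strand: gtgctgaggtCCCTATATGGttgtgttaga
Acta2, chr19:34255388-34255417, minus strand: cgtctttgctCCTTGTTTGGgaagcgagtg
The promoter table held 30 start regions for 27 of the 41 genes. CCAAT stood in 12 of the 30 and in 33.8% of all 32851 regions of the table, and GGGCGG in 14 of the 30 and in 32.7% of all. TATAAA stood in 3 of the 30, those of Col3a1, Vim and Postn, and in 12.4% of all. An unchanged CArG box stood in 0 of the 30 and in 1.47% of all. With at most 1 inner base changed it stood in 5 of the 30, those of Col6a3, Kdr, Col1a2, Synm and Acta2. The share of all regions was 8.59%, which includes those with an unchanged box. These are matches of letters and say nothing of binding.

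The tissue label was checked against markers of absorptive enterocytes, of which 13 of 14 had a value. Vil1, which bundles actin in the brush border, had signals of 24485 on control and 24001 on EPA&DHA, and Fabp2, the intestinal fatty acid binding protein, 50049 and 40598. Epcam, an epithelial surface protein, had 28547 and 22278, and Alpi, the intestinal alkaline phosphatase, 27947 and 24513. Sis (sucrase-isomaltase) had no probeset of its own. Markers of smooth muscle were read less fully, with 2 of the 10 contractile genes under the filter described next. Those were Cnn1 (calponin) and Lmod1 (leiomodin), which bind actin in smooth muscle, with signals of 36.3 and 28.4 and 3.18 and 2.75. Among those kept, Acta2 had signals of 850.8 and 767.4, Tagln 151.7 and 114.2, and Actg2 120.7 and 111.8. Des had 116.5 and 79.3, and Myh11, the smooth muscle myosin heavy chain, 91.8 and 79.4. Signals are in arbitrary units and depend on the probes, so levels of different genes were not set against each other.

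To limit the weight of dim values, the brightest 54% of probesets were kept, which needed a mean signal of at least 50.8. Where several kept probesets named only 1 and the same gene, the brightest stood for it, and this gave 29 of the 41 genes and 11706 genes over the whole table. The log2 ratio of the EPA&DHA signal over the control signal is negative where the signal was lower on EPA&DHA. How far probesets of like brightness scattered between the arrays was described by the robust SD of the log2 ratios over the 500 closest in signal, here the local SD.

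The matrix, contractile and vascular genes had slightly lower signals on EPA&DHA in the median. The median log2 ratio was -0.33 for 16 matrix genes, -0.31 for 8 contractile genes and -0.34 for the 2 vascular genes with a value, against -0.05 over all 11706 genes. The medians of matrix and contractile genes differed by -0.02, and those of matrix and vascular genes by 0.02. The median local SDs were 0.46 for matrix, 0.50 for contractile and 0.54 for vascular genes. The vascular median rests on Cdh5 at -0.53 and Kdr at -0.16. These values therefore cannot show that the 3 groups differed by the same amount. Of the 29 genes, 25 had a log2 ratio below 0, which was so for 56.4% of all genes. No gene was at least 1.5-fold higher, where the share over all genes was 6.2%. Dcn, Eln, Col4a1 and Synm, 4 of the 29, were at least 1.5-fold lower, or 13.8% where the share over all genes was 7.93%. Eln and Synm were kept through their control signals alone. With both signals required to reach the level of the filter, 2 of 27 genes, Dcn and Col4a1, were at least 1.5-fold lower, or 7.41%, near the 5.85% of all genes under the same requirement. Eln was also at least 2-fold lower, 1 of 29 where 2.24% of all genes were, and 0 were 2-fold higher, where 1.57% were. Over the 40 kept probesets of these genes 7 were at least 1.5-fold lower, where 8.87% of all kept probesets were. The 7 include both probesets of Col4a1. They also include those of Eln and Synm and the dimmer one of Col18a1, each kept through its control signal alone.

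**Figure D1:**
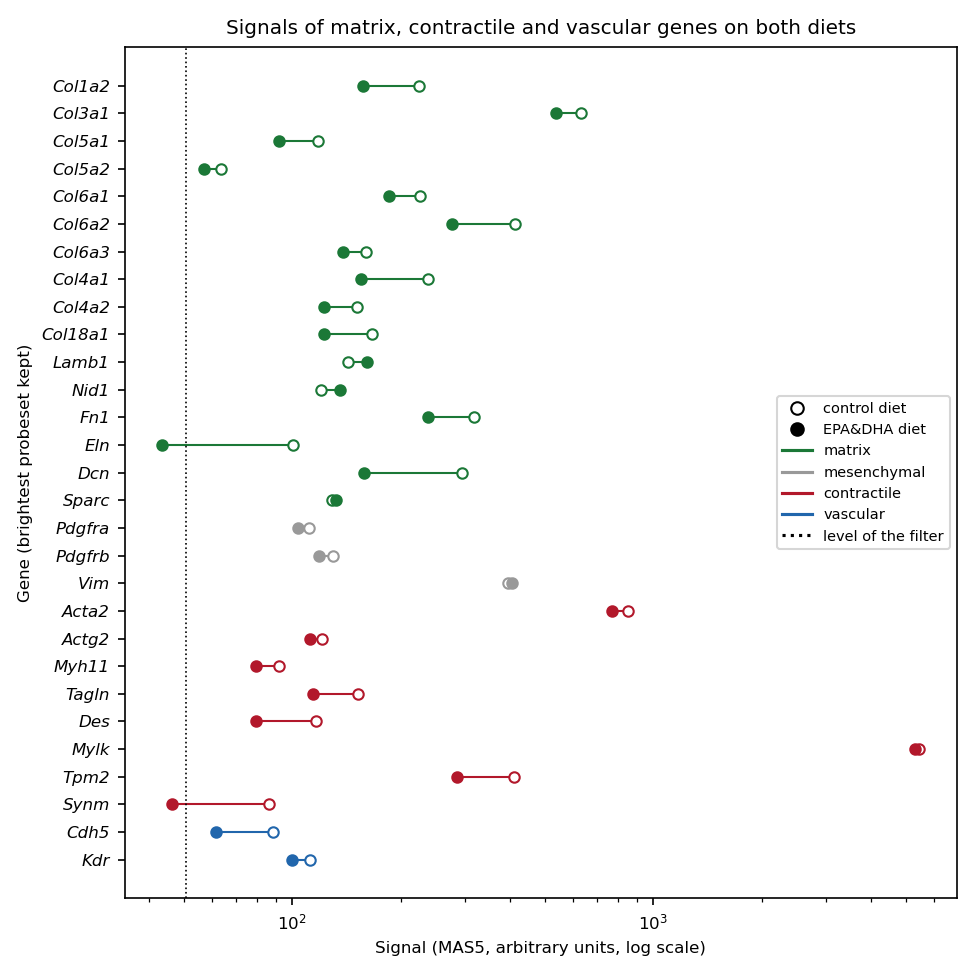
Signal on the control diet (open circles) and on EPA&DHA (filled circles) for the 29 genes with a kept probeset, on a logarithmic axis in arbitrary units. The dotted line is the level of the filter at 50.8, and Eln and Synm end under it. Filled circles lie to the left of the open ones in 25 genes and to the right in Nid1, Lamb1, Vim and Sparc.

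The brightness of these genes bears on that count. Among the 6080 dimmest kept probesets, with mean signals up to 112.5, 20.7% were at least 1.5-fold lower, and among the next 6080, up to 311.9, 9.42%. The 9 genes in the dimmest set included Eln and Synm, and the 14 in the next included Dcn and Col4a1. Counted against the local SD instead, 8 of the 29 genes lay more than 1 local SD below the local median and 0 lay more than 1 above it. Over all genes these shares were 16.4% and 15.7%. Dcn was the only one of the 29 beyond 2 local SDs on the probeset that stood for the gene.

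**Figure D2:**
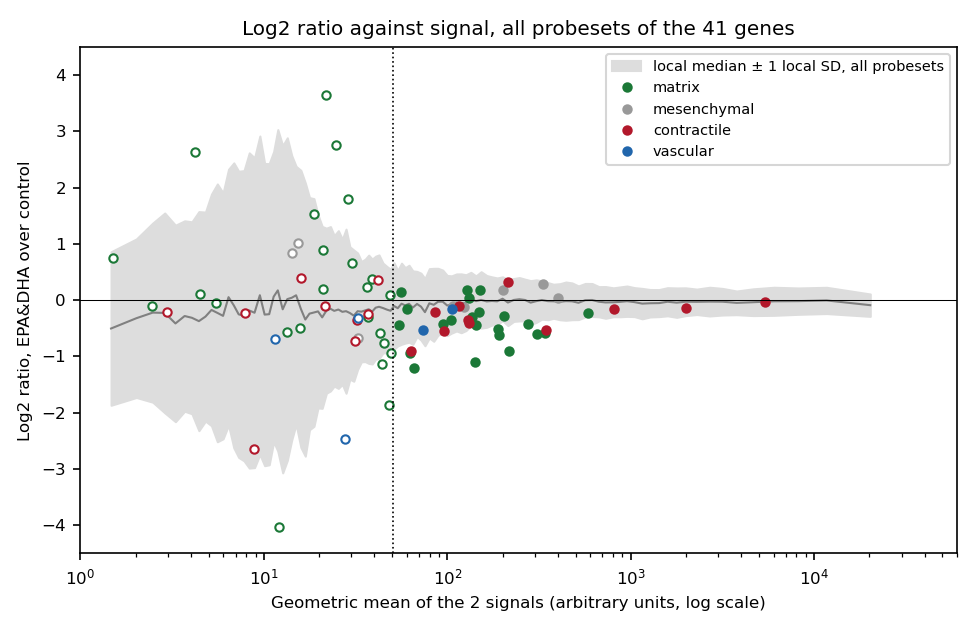
Log2 ratio of EPA&DHA over control (y axis) against the geometric mean of both signals (x axis, logarithmic) for the 79 probesets of these genes, filled where kept and open where under the filter. The grey line and band are the local median and 1 local SD to either side over all probesets. Filled points lie mostly in the lower part of the band, while open points scatter widely to both sides.

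Among the fibrillar collagens and type VI collagen, which forms beaded filaments around cells, 7 of 8 genes had a kept probeset. All 7 had a log2 ratio below 0, where 56.4% of all genes did, and their median was -0.29. None was at least 1.5-fold lower on the probeset that stood for it. Col6a2 came closest. It went from 414.3 on control to 277.2 on EPA&DHA, or -0.58 on the log2 scale, on a probeset open to binding by related genes, and its other kept probeset gave 382.6 and 251.1, 1.52-fold lower. The other chains of type VI collagen lay nearer to 0, with Col6a1 going from 225.6 to 185.0 and Col6a3 from 160.4 to 138.5.
Col1a2, the second chain of type I collagen, had signals of 224.1 on control and 157.3 on EPA&DHA, and 63.6 and 46.7 on its other kept probeset, with log2 ratios of -0.51 and -0.44. Col3a1, the collagen of fine reticular fibres, had signals of 629.2 and 536.3, a log2 ratio of -0.23 with a local SD of 0.29. Col5a1 and Col5a2, the type V chains that set fibril width, had log2 ratios of -0.35 and -0.16, and the other kept probeset of Col5a1 stood at 0.15. Col1a1, the main chain of type I collagen, had both of its probesets under the filter. One went from 47.4 to 50.5 and the other from 65.2 to 29.7, so its direction was not settled.

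The basement membrane genes were split. Col4a1, the main chain of type IV collagen, was 1.53-fold lower, with signals of 237.8 on control and 155.2 on EPA&DHA. Its other kept probeset went from 206.0 to 96.1, 2.14-fold lower, at -2.35 local SDs from the local median. Col4a2, which pairs with Col4a1 in the same molecule, had signals of 150.8 and 122.3, or -0.30 on the log2 scale where the local SD was 0.48. In RefSeq these genes run in opposite directions on chromosome 8 of GRCm38.p6, Col4a1 from 11312826 on the minus strand and Col4a2 from 11312805 on the plus strand, so that their annotated 5' ends overlap.
Col18a1, whose C-terminal fragment is endostatin, was lower on both kept probesets. These went from 166.3 to 122.3 and from 86.2 to 45.1, with log2 ratios of -0.44 and -0.93, the second on a probeset that related genes may also bind. Lamb1, a laminin beta chain, and Nid1, which links laminin to type IV collagen, were on the other side of 0. Their signals were 142.6 and 160.9 for Lamb1 and 119.8 and 136.0 for Nid1, with log2 ratios of 0.17 and 0.18, inside 1 local SD, and the Lamb1 probeset may bind related genes. The remaining 3 probesets of Lamb1, all under the filter, also had log2 ratios above 0, from 0.67 to 1.53. Each lay inside 1 local SD of the local median, where the local SDs ran from 1.04 to 2.02.
Col4a5, Col15a1, Lama4 and Lamc1 had no kept probeset. The single probeset of Col15a1, a collagen of vascular and muscle basement membrane, had signals of 9.46 on control and 64.2 on EPA&DHA. A dim probeset of Nid1 went from 6.20 to 77.2, whereas the probesets of Lama4 pointed opposite ways. These probesets of Nid1 and Col15a1 lay 2.60 and 2.19 local SDs above the local median, where the local SDs were 1.47 and 1.33 on the log2 scale.

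Of the other matrix proteins, Dcn and Eln stood lowest. Dcn (decorin), a proteoglycan that binds collagen fibrils, was 1.87-fold lower, from 295.0 on control to 157.7 on EPA&DHA, and lay -2.09 local SDs from the local median. Eln (elastin), which makes elastic fibres, went from 100.3 to 43.7, 2.29-fold lower, but its value on EPA&DHA was under the level of the filter. Both rest on 1 kept probeset.
Fn1 (fibronectin), a glycoprotein that ties cells to matrix, had signals of 317.9 and 237.4, or -0.42 on the log2 scale where the local SD was 0.36. Sparc, a collagen-binding glycoprotein, gave log2 ratios of 0.04 and -0.42 on its kept probesets. Lum (lumican) and Postn (periostin), both collagen-binding, were read only under the filter. Lum went from 34.1 to 44.2 and Postn from 91.2 to 25.2, which for Postn is a log2 ratio of -1.85 and the lowest of the 11 genes without a kept probeset.

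The genes of mesenchymal cells lay at the level of the whole table. Pdgfra and Pdgfrb, the receptors for platelet-derived growth factor on fibroblasts and on pericytes, had log2 ratios of -0.10 and -0.13. Vim (vimentin), the intermediate filament of fibroblasts, endothelium and leukocytes, was above 0 on all 3 kept probesets. The signals were 394.8 and 407.2, 299.3 and 365.6, and 188.8 and 215.2, with log2 ratios from 0.04 to 0.29, the highest on a probeset that related genes may also bind. It was the only gene of the 9 with more than 1 kept probeset that lay above 0 throughout. Col1a2, Col4a1, Col6a2, Col18a1 and Tpm2 lay below 0 on all of theirs, or 5 of 9, where 26.6% of all genes with more than 1 kept probeset did. The dimmer kept probesets of Col1a2 and Col18a1 were kept through their control signals alone. Their signals on EPA&DHA were 46.7 and 45.1, under the level of the filter. Col5a1, Mylk and Sparc were mixed.

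**Figure D3:**
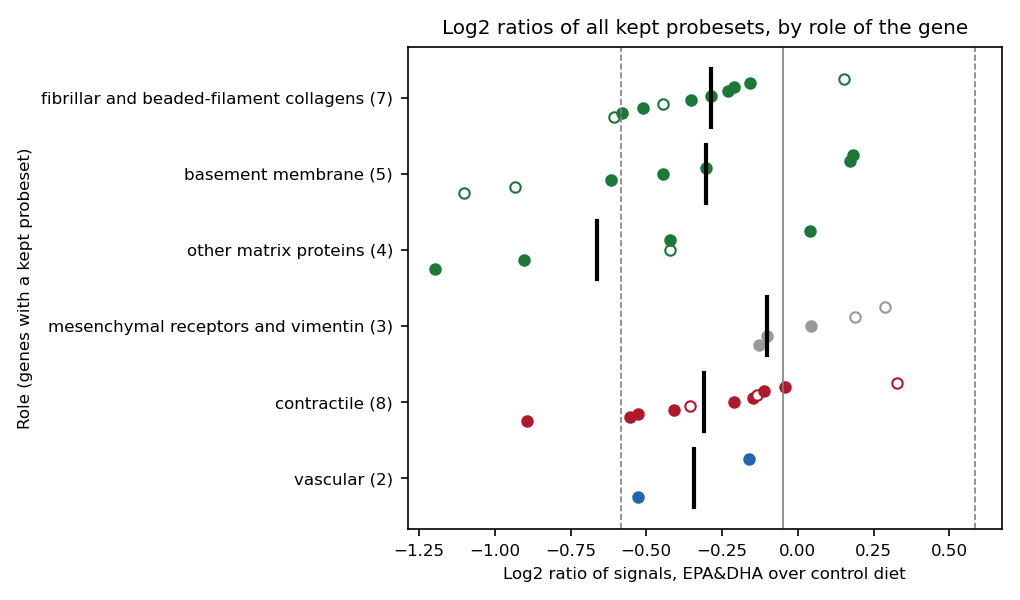
Log2 ratio of EPA&DHA over control (x axis) for the 40 kept probesets, by role of the gene, with the number of genes in brackets. Filled circles stand for the gene, open circles are its other kept probesets, and black bars are medians over genes. The solid grey line is the median of all genes at -0.05 and the dashed lines are 1.5-fold. Points lie left of 0 in 32 of 40 cases, where 54.3% of all kept probesets do, and none reaches 1.5-fold on the right.

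All 8 contractile genes with a value had log2 ratios below 0, from -0.90 to -0.04, where 56.4% of all genes were below 0. Of the 8, 2 lay more than 1 local SD below the local median, where 16.4% of all genes did. Synm, Des and Tpm2 had the lowest ratios. Synm (synemin), an intermediate filament protein that joins desmin, was 1.86-fold lower, from 86.5 on control to 46.5 on EPA&DHA, ending under the level of the filter. Des (desmin), the muscle intermediate filament, went from 116.5 to 79.3, or -0.55 on the log2 scale where the local SD was 0.53. Tpm2, a tropomyosin of thin filaments, went from 412.2 to 286.2 and from 146.0 to 114.1, with log2 ratios of -0.53 and -0.36, the first at -1.53 local SDs.
The other contractile genes lay between -0.41 and -0.04. Acta2, the vascular and visceral smooth muscle actin, had signals of 850.8 and 767.4, a log2 ratio of -0.15, on a probeset open to binding by related genes. Actg2, the enteric smooth muscle actin, had 120.7 and 111.8, and Myh11 a log2 ratio of -0.21. Tagln (transgelin), an actin-binding protein of smooth muscle, went from 151.7 to 114.2, a log2 ratio of -0.41. Mylk, the kinase that starts contraction by phosphorylating myosin light chain, is also made in epithelium, where it regulates tight junctions. It had signals of 5448 and 5297 on its brightest probeset, 2096 and 1908 on the next and 191.3 and 240.1 on the dimmest kept, with log2 ratios of -0.04, -0.14 and 0.33.

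Of the vascular genes, Cdh5 (VE-cadherin), the adhesion protein of endothelial junctions, went from 88.7 on control to 61.6 on EPA&DHA, or -0.53 on the log2 scale where the local SD was 0.57. Kdr, the main receptor for VEGF, had 111.9 and 100.1, a log2 ratio of -0.16. Pecam1, a further junction protein, went from 14.6 to 9.07 and Tek, the angiopoietin receptor, from 36.3 to 29.3, both under the filter. All 5 vascular probesets had log2 ratios below 0, including 3 under the filter. The shares below 0 were 54.3% of all kept probesets and 55.3% of all probesets under the filter. Of all 39 probesets of these genes under the filter, 22 were below 0 and 17 above.

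Lists of related genes, written from general knowledge but with earlier results of these data known, are given beside these. The shares over all genes were 7.93% at least 1.5-fold lower, 6.2% at least 1.5-fold higher and 56.4% below 0. Of 11 further matrix genes with a value, 2 were at least 1.5-fold lower and 0 higher, all 11 were below 0, and the median was -0.34. The lowest were Col16a1, a collagen that associates with fibrils, from 153.2 to 56.5, a log2 ratio of -1.44, and Lama5, a laminin of epithelial basement membrane, at -0.99. The highest were Efemp1 and Hspg2 (perlecan) at -0.03 and -0.06. Of 11 pericyte and further endothelial genes, 5 were at least 1.5-fold lower and 1 higher, with a median of -0.46. Most were dim, with a median local SD of 0.57. Against the local SD, 4 lay more than 1 below the local median and 1 more than 1 above it. The shares over all genes were 16.4% and 15.7%. Egfl7 and Esam, both made by endothelium, had log2 ratios of -0.82 and -0.76, and Cspg4, a pericyte proteoglycan, 1.01, from a control signal of 42.6. Plvap, a protein of endothelial fenestrae, stood at 0.16.
Of 16 further smooth muscle genes, 1 was at least 1.5-fold lower and 0 higher, with a median of -0.18. The lowest were Myl6, a myosin light chain present in most cells, at -0.74 and Smtn (smoothelin) at -0.43, and the highest Csrp1 and Srf, the gene of serum response factor, both at 0.22. Collagen synthesis and cross-linking enzymes had a median of -0.09 over 9 genes, with 1 at least 1.5-fold higher and 1 lower. Plod1, a lysyl hydroxylase, had a log2 ratio of 0.69 and Serpinh1, the collagen chaperone HSP47, -0.90, while Crtap stood at 0.42 and Plod3 at -0.49. Matrix proteases and inhibitors had a median of 0.11 over 9 genes, with 0 at least 1.5-fold higher and 1 lower. That one was Mmp2, a gelatinase made by stromal cells, at -0.94. Ctsk and Mmp14, proteases that cut collagen, stood at 0.52 and 0.45, and Mmp10 at -0.41. TGF-beta and PDGF signals had a median of -0.07 over 11 genes, with 0 higher and 1 lower, Pdgfb, at -1.16 from a control signal of 95.4. Its neighbour in this order was Ccn1 at -0.19, and the highest were Smad2 and Pdgfa, both at 0.09.

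**Figure D4:**
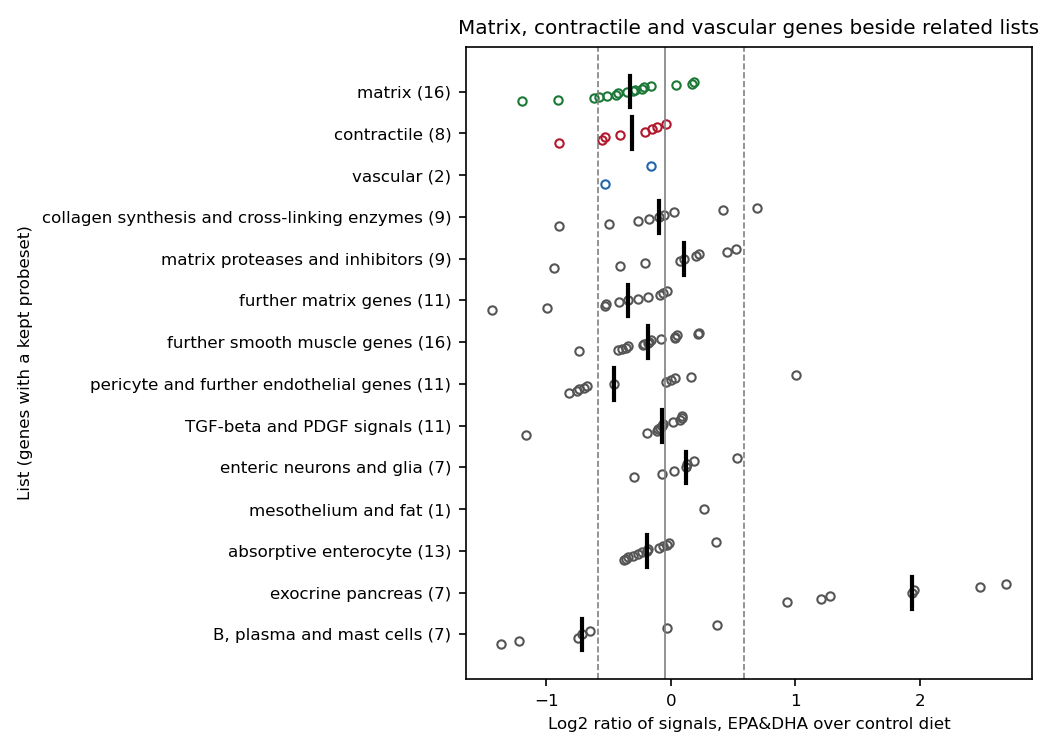
Log2 ratio of EPA&DHA over control (x axis) for each gene with a kept probeset (circles) in the matrix, contractile and vascular genes and in 11 other lists. Brackets hold the number of genes. Black bars are medians of lists with at least 3 genes, the solid grey line is the median of all genes at -0.05 and the dashed lines are 1.5-fold. Matrix and contractile medians lie at -0.33 and -0.31, that of exocrine pancreas at 1.94 and that of B, plasma and mast cells at -0.71.

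Markers of other cells also differed between the pools, and their part in the results above was not tested. Among all genes, 6.2% were at least 1.5-fold higher, 7.93% at least 1.5-fold lower and 56.4% below 0. Of 7 genes of the exocrine pancreas, all 7 had at least 1.5-fold more signal on EPA&DHA, and in sum they gave 3926 on control and 12753 on EPA&DHA. Cpb1 and Ctrb1, digestive enzymes, were highest with log2 ratios of 2.70 and 2.48, and Cela1 and Cela2a lowest with 0.94 and 1.21. Of 7 genes of B, plasma and mast cells, 5 were at least 1.5-fold lower and 0 higher, with the mast cell proteases Mcpt1 and Mcpt2 at -1.37 and -1.22, Mzb1 at -0.03 and Jchain at 0.37. Their summed signal was 13243 on control and 15972 on EPA&DHA, of which Jchain alone gave 11505 and 14863. The other 6 genes were below 0.
Of 13 enterocyte genes, 12 were below 0 with 0 at least 1.5-fold lower or higher and a median of -0.19, and their summed signal was 434555 and 372034. The lowest were Apoa4 and Epcam at -0.38 and -0.36 and the highest Cdh1 (E-cadherin) and Krt18 at 0.36 and -0.02. The 7 genes of enteric neurons, glia and interstitial cells with a value had a median of 0.12, with 0 at least 1.5-fold apart, and a summed signal of 595.4 and 652.2. Kit and Ret stood at 0.53 and 0.18, and Ano1 and Sox10 at -0.30 and -0.07. Of the markers of mesothelium and fat, 1 of 8, Adipoq, had a value, with signals of 185.0 and 222.5. The summed signal of the 16 matrix genes was 3494 on control and 2712 on EPA&DHA, and that of the 2 vascular genes 200.6 and 161.7. That of the 8 contractile genes was 7278 and 6781. Most of it came from Mylk, which is also made in epithelium, with 5448 and 5297. As a sign of RNA integrity, probesets at the 3' end over those at the 5' end of a transcript gave signal ratios of 0.932 and 0.793 for Gapdh and 1.22 and 1.16 for Actb, control first.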

How the data were processed

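The authors read 1 pool of small intestinal RNA per diet on an Affymetrix MOE430_2 array and summarized each probeset with MAS5. The deposited signals had the same 2% trimmed mean, 500.004, on both arrays. No genome build applies to these values. Detection calls were not used here, and as arrays carry no read counts, the number of arrays limits the precision.

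Gene names came from the platform annotation and were updated through gene identifiers to RefSeq symbols. Of 45037 probesets without the 64 controls, 34945 named 1 gene, 932 several and 9160 none. After scaling both arrays to 1 trimmed mean without the controls, log2 ratios were taken. The brightest 54% by mean log2 signal (24320 probesets, the share that the methods give as expressed) were kept. All 41 genes were named, in other lists the 2 highest and 2 lowest, and for the tissue Vil1, Fabp2, Sis, Alpi, Epcam and Cdh1. Genes and lists were chosen with earlier results of these data known. Figures were drawn with matplotlib 3.10.9 and loess curves with statsmodels 0.14.6, under Python 3.11.15 with pandas 2.3.3 and numpy 2.4.6, and the steps were tested on simulated data. Alternatives covered scaling, offsets, filters and the choice of probeset.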

Additional observations from a re-analysis of the deposited data

How the results depend on the processing

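The median log2 ratios of all 29 genes and of the matrix, contractile and vascular genes stayed below 0 under each of the 12 alternatives that gave them a value. Leaving the second brightest probesets aside, the median of matrix genes ranged from -0.35 to -0.23 and that of contractile genes from -0.41 to -0.21. With the second brightest kept probeset, which 9 genes have, the median was -0.42 over all of them and -0.53 over matrix genes, and matrix and contractile genes differed by -0.28. That difference otherwise ranged from -0.09 to 0.06. The number of genes at least 1.5-fold lower was 2 of 29 with an offset of 50 (4.10% of all genes), 2 of 19 with the brightest 40% of probesets (4.25%) and 2 of 27 with both arrays above the level of the filter (5.85%). It was 6 of 29 with the mean of kept probesets (7.54%), 5 of 27 without probesets that may bind related genes (8.02%) and 3 of 9 with second probesets (8.07%). Without a filter it was 7 of 40, or 17.5%, where 19.5% of all genes were, and 1 of 40, Col15a1, was at least 1.5-fold higher, where 14.5% of all genes were. At a 2-fold threshold 1 of 29, Eln, was lower (2.24%). Under the remaining scalings and offset it was 3 or 4 of 29, where the share over all genes lay between 6.36% and 7.94%. The vascular genes had no value with the brightest 40% or with second probesets. Of 314 values of single genes under the alternatives, 312 moved by less than their local SD and 2 moved by more. Of the genes at least 1.5-fold lower, Dcn, Eln, Col4a1 and Synm, 0 changed sign. Col5a1 and Sparc did with the second brightest probeset, at 0.15 and -0.42, and Sparc and Mylk with the mean of kept probesets, at -0.19 and 0.05. Many of the 314 values could not move. A change of filter keeps or drops a gene without altering its value, and so does the choice of probeset for genes with 1 kept probeset. No paired analysis was possible because each diet has 1 array.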
